A study of Homo sapiens with 12 samples.

Results

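Fused regions are early replicating regions of CDK12-silenced, MycER-activated cells, each of which took the place of at least 2 neighbouring regions seen in silenced cells without activation. They were chosen by the called positions in 3 of the 4 lists: a row of the shCDK12 + OHT list was kept when it lay on an autosome, was under 350 kb wide, overlapped 2 or more rows of the shCDK12 list, and touched no row of the shNT list that itself overlapped 2 or more shCDK12 rows. The last condition sets aside control regions that were divided in the shCDK12 list. The parts of silencing and of read depth in that division were not tested. Of the 4762 rows of the shCDK12 + OHT list, 219 met the rule. The 4 conditions were human osteosarcoma U2OS cells expressing MycER, Myc fused to the estrogen receptor, and carrying a doxycycline-inducible hairpin that was non-targeting (shNT) or directed at CDK12 (shCDK12), each without or with 300 nM 4-hydroxytamoxifen (OHT) for 40 h. Doxycycline (1 µg/mL) was given to all of them. Per the labels there were 3 samples per condition, deposited as 1 list of regions merged over them, so that no value below has a replicate error and no test between conditions was possible. The silencing and the activation of MycER cannot be checked in lists of DNA regions.

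Mitotic cells collected after 8 h in 100 ng/mL nocodazole were released for 24 h into 25 µM EdU and 2 mM hydroxyurea. EdU marks new DNA, and hydroxyurea depletes nucleotides so that forks stall close to the origins that fire first. The label therefore outlines early initiation zones, stretches in which several origins may fire, and the unlabelled stretches between them are copied later. CDK12 is a kinase of transcribing RNA polymerase II that helps long genes to be transcribed to their end. Myc is an oncogenic transcription factor that also hastens entry into S-phase. In a population of cells, signal from more cells and more signal per cell cannot be told apart. Positions are given on hg19, the human build named in the labels. A sequence of that build was not used here, so that no bases and no genes are given for the regions.

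The shCDK12 rows under a fused region are called its constituents, and the stretch between neighbouring constituents a bridged gap. A gap was called spanned in another list when a single row covered all of its bases, free when no row touched it, and partly covered otherwise. The shNT + OHT list was not used by the rule. It is nevertheless related to it, since shNT regions that already joined the constituents were set aside.

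The 219 fused regions held 455 constituents and 236 bridged gaps. A pair of constituents was joined in 205 of them, 12 joined 3, 1 joined 4 and 1 joined 5. Their width ranged from 8.8 to 348 kb, with a median of 168.4 kb (quartiles 120.6 and 228.8 kb). They held 522 to 63275 reads each, with a median of 5625. Counted over all autosomal rows under 350 kb, fused regions made up 4.96% of 4412 rows, whereas 3274 rows overlapped 1 shCDK12 row, 726 overlapped none and 193 overlapped at least 2 but touched a divided shNT row. The count of 219 became 133 when 1 score limit was set for every list, 136 with equally many top-scoring rows, 129 with constituents up to 10 kb apart counted as 1, and 412 without the condition on shNT.

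Joining of neighbours was more frequent with OHT in silenced cells than in the opposite direction. Without the condition on shNT, 412 of 4412 shCDK12 + OHT rows (9.34%) overlapped 2 or more shCDK12 rows, and 118 of 4624 shCDK12 rows (2.55%) overlapped 2 or more shCDK12 + OHT rows. In cells with CDK12 the numbers lay closer together: 159 of 4322 shNT + OHT rows (3.68%) overlapped 2 or more shNT rows, and 118 of 3606 shNT rows (3.27%) did so in the other direction. The difference between the backgrounds could not be tested with 1 merged list per condition. Read depth differed along with these counts, from 13220717 autosomal reads inside regions in shCDK12 to 17261176 in shNT, 28573223 in shCDK12 + OHT and 49994993 in shNT + OHT. The part of depth in the joining was not tested.

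Bridged gaps were short against the regions around them. Their median width was 15.8 kb (quartiles 5.6 and 30.3 kb), and they ranged from 4.4 kb, the narrowest gap that the shCDK12 list holds, to 116 kb. Of the 236 gaps, 103 (43.6%) were at most 10 kb wide and 16 were at 4.4 kb. A further 25 were wider than 50 kb (10.6%). The median was 29.6 kb when all rows up to 10 kb apart were joined first, and 7.2 kb when regions that touch a divided shNT row were kept. The distance from the outermost constituents to the next shCDK12 row had a median of 106.4 kb, and in 179 of 219 fused regions every bridged gap was narrower than the distances on both sides. Hence the joined neighbours were mostly the closest ones, which the requirement to lie within a single row under 350 kb favours.

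The make-up of a fused region was mostly its constituents. Summed over the 219 regions, 76.4% of 39.1 Mb lay inside constituents, 13.6% (5.33 Mb) in bridged gaps and 9.98% (3.90 Mb) beyond the outermost constituents. Per region, the gaps took a median of 10.3% of the length, with a range from 1.38% to 63.6%. Some extension beyond the outermost constituents was present in 185 regions, with a median over all 219 of 8.4 kb and a maximum of 130.4 kb, and in 86 regions it exceeded the gaps. Conversely, 2.75 Mb of constituents reached outside their fused region. Extension of any length was counted here, and it was often small. Its median share of a region's length was 5.86% (quartiles 1.15% and 16.2%). Extension was not particular to fused regions. In 3047 rows that matched one to one between shCDK12 and shCDK12 + OHT, the median width ratio was 0.12 log2 (quartiles -0.01 and 0.48).

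**Figure D1:**
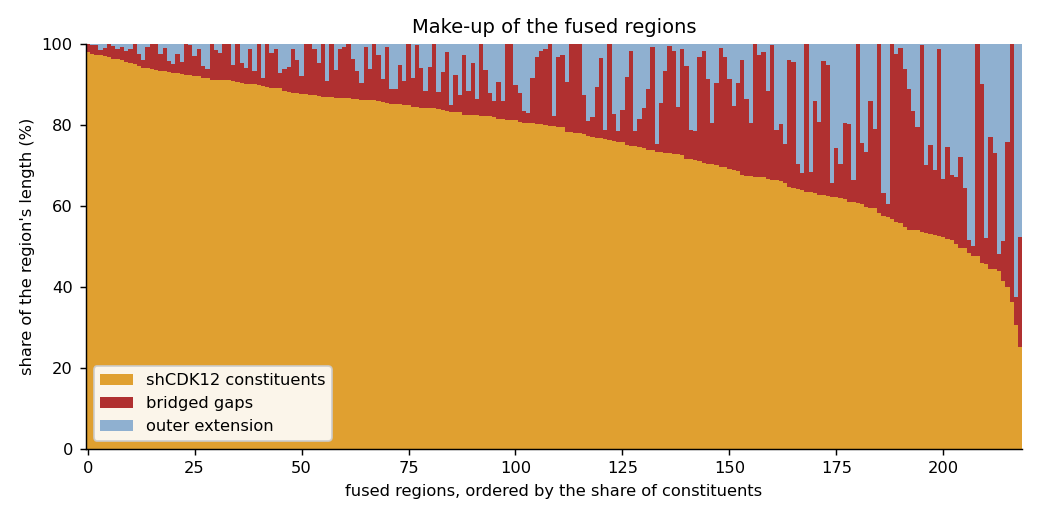
Share of each fused region's length (%) inside shCDK12 constituents, in bridged gaps and beyond the outermost constituents (outer extension), with the 219 regions ordered by the share of constituents. Constituents took a median of 79.8% and gaps a median of 10.3%, and the gap share rose to 63.6% in 1 region.

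The joined constituents were unequal. The largest one of a region had a median width of 83.6 kb and the smallest one 38.8 kb. The median ratio was 1.90-fold, and in 54 regions the largest was at least 3 times as wide as the smallest. The largest constituent was also the denser one in 141 of 218 regions that had constituents of different width, and its shCDK12 density had a median of 16.4 reads per kb, the smallest one 13.8. Against the other 4345 autosomal shCDK12 rows, the 454 different constituents were slightly narrower, with a median of 51.6 against 57.2 kb, and less dense, with 14.9 against 17.6 reads per kb. The interquartile ranges overlapped in both measures (density 12.2 to 19.5 against 13.3 to 27.3 reads per kb). These values come from the lists that the rule used and describe the choice.

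Next, the constituents were looked up in the lists of cells with CDK12. In shNT + OHT, 375 of 454 constituents were present (82.6%, Wilson 95% interval 78.8 to 85.8), against 91.0% of the other shCDK12 rows (90.1 to 91.8). In shNT 279 were present (61.5%), against 81.7%, a share which the condition on shNT lowers. The smaller partner was the one missing more often: 161 of 219 smallest constituents were found in shNT + OHT (73.5%, 67.3 to 78.9) and 204 of 219 largest ones (93.2%, 89.0 to 95.8). The smallest constituents were also narrower and less dense than the largest ones. No share is given for other shCDK12 rows of like width or density, so the part of size was not tested. These intervals cover counting error only, and regions are not replicates of a condition.

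The state of the 236 bridged gaps in shNT + OHT was then determined. A single shNT + OHT row spanned 70 gaps (29.7%, Wilson interval 24.2 to 35.8), 87 were partly covered (36.9%, 31.0 to 43.2) and 79 were free (33.5%, 27.8 to 39.7). The spanned share depended on how regions were counted: it was 15.0% when constituents up to 10 kb apart counted as 1, and 54.7% when regions that touch a divided shNT row were kept. In the latter case the free share was 21.1%. As background, of the 3703 autosomal gaps under 350 kb between neighbouring shCDK12 rows, 19.7% were spanned in shCDK12 + OHT, 15.4% were spanned in shNT + OHT, 23% were free of shNT + OHT rows and 12.2% were spanned in shNT. Both shares of the bridged gaps lay above this background when all widths were pooled. The background also holds the bridged gaps and the gaps that shNT joins, and its gaps outside joined rows were wider, with a median of 75.2 kb. The states were therefore also compared by width. Of all gaps up to 5 kb, 71.6% were spanned in shNT + OHT, against 38.7% of the bridged gaps. From 5 to 10 kb it was 59.3% against 52.8%, and from 10 to 20 kb 26.0% against 17.6%. From 20 to 50 kb the bridged gaps had the higher share, 18.9% against 12.1%. From 50 to 120 kb it was 1.06% of all gaps and 0 of the bridged ones. The free share of all gaps was 22.1%, 23.8%, 22.3%, 22.4% and 24.5% in these bands.

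Narrow gaps were spanned in shNT + OHT more often than broad ones. Of the 31 bridged gaps of at most 5 kb, 12 were spanned (38.7%, 23.7 to 56.2). Between 5 and 10 kb it was 38 of 72 (52.8%, 41.4 to 63.9), between 10 and 20 kb 6 of 34 (17.6%, 8.35 to 33.5) and between 20 and 50 kb 14 of 74 (18.9%, 11.6 to 29.3). None of the 25 gaps over 50 kb was spanned, which allows a share of up to 13.3% by the upper Wilson bound. Of those 25, 19 were partly covered and 6 were free. The intervals of neighbouring bands overlapped except between 5 to 10 kb and 10 to 20 kb. The free state did not fall with width in the same way: it applied to 16 of 31 gaps of at most 5 kb (51.6%), 25 of 72 (34.7%), 12 of 34 (35.3%), 20 of 74 (27.0%) and 6 of 25 (24.0%) in the successive bands.

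**Figure D2:**
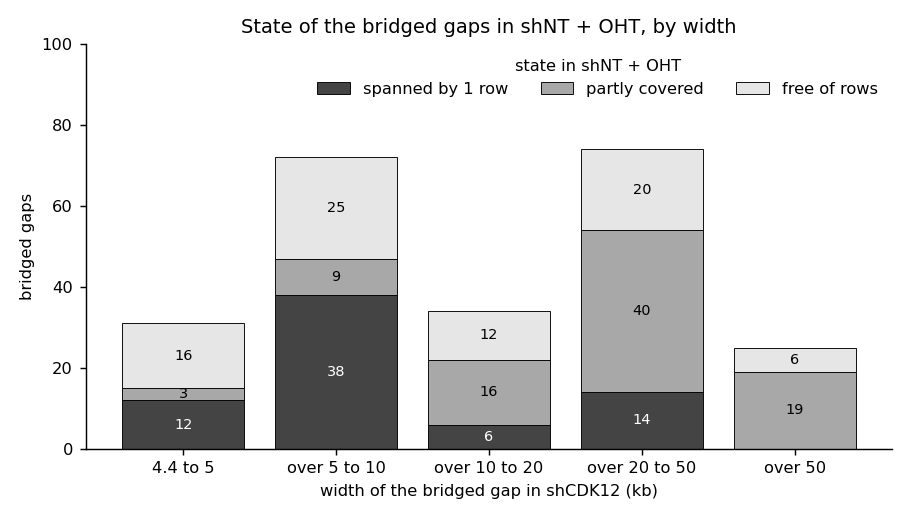
Number of bridged gaps by their width in shCDK12 (kb) and their state in shNT + OHT: spanned by 1 row, partly covered or free of rows, with the count written in each part of a bar. Spanned gaps peak at 38 of 72 between 5 and 10 kb and are absent above 50 kb.

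For a like-for-like view, chosen after the first results were seen, gaps that no shCDK12 + OHT row joined and whose flanks no single shNT row joined were taken as the comparison. Among 1880 such gaps up to 120 kb wide, 59 were spanned in shNT + OHT (3.14%, Wilson interval 2.44 to 4.03), against 29.7% of the bridged gaps. The bridged gaps had the higher share in 4 of 5 width bands: 38.7% against 15.8% up to 5 kb, 52.8% against 16.7% from 5 to 10 kb, 17.6% against 6.86% from 10 to 20 kb, and 18.9% against 3.59% from 20 to 50 kb. Over 50 kb the shares were 0 against 0.613%. The intervals were apart from 5 to 10 kb and from 20 to 50 kb and overlapped in the other bands. The free state had no single order. Over all widths 33.5% of the bridged gaps and 26.6% of the comparison gaps were free. The bridged gaps had the lower share up to 5 kb (51.6% against 73.7%) and from 5 to 10 kb (34.7% against 49.0%). They had the higher one from 10 to 20 kb (35.3% against 29.7%) and from 20 to 50 kb (27.0% against 23.7%), and over 50 kb the shares were 24.0% and 24.7%.

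**Figure D3:**
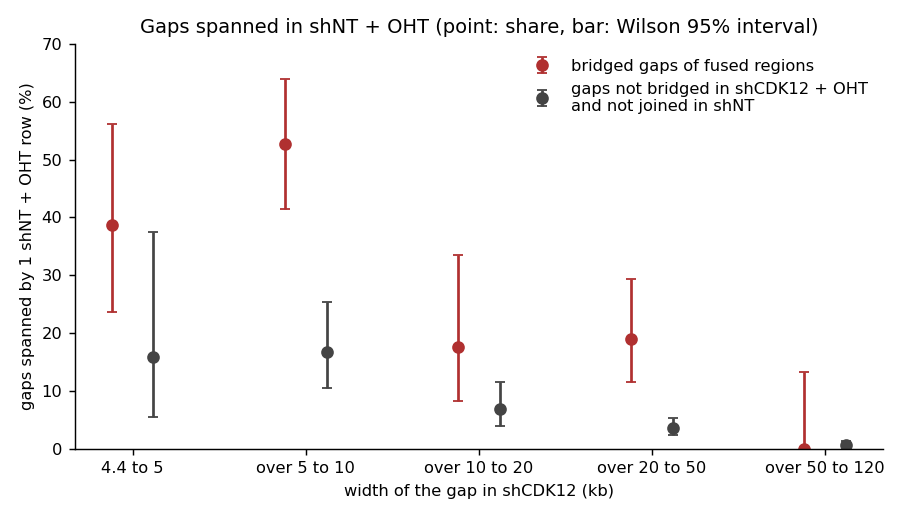
Share of gaps (%) spanned by 1 shNT + OHT row, by gap width in shCDK12 (kb), for the bridged gaps of fused regions and for gaps that were neither bridged in shCDK12 + OHT nor joined in shNT. Points are shares and bars Wilson 95% intervals. Between 5 and 10 kb the shares are 52.8% and 16.7%, and over 50 kb both are near 0.

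Cover of the gaps in cells with CDK12 was also counted by bases. Rows of shNT covered 14.3% of the 5.33 Mb of bridged gaps and rows of shNT + OHT 35.2%. In the comparison gaps the values were 12.2% and 14.6%. Widths were pooled, and 978 of the 1880 comparison gaps were over 50 kb, against 25 of the 236 bridged gaps. The 2 sets are therefore not matched in this count of bases. More bases were covered with OHT than without in 136 bridged gaps, fewer in 28, and equally many in 72. The comparison gaps were not counted in this way. By state, 66 gaps were free in both shNT lists, 35 were free in shNT and spanned in shNT + OHT, 33 went from partly covered to spanned, and 13 went from partly covered to free. Only 4 gaps were spanned in shNT, because the rule sets nearly all such cases aside. The same condition limits the other shNT values of the bridged gaps, so that their rise with OHT is partly set by the choice.

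Partial cover always included an edge of the gap, while islands beside such an entry were not counted. In the 87 partly covered gaps, shNT + OHT rows entered from 1 edge in 61 and from both edges in 26, and in none was there only an island inside the gap. The covered share had a median of 37.1% (quartiles 17.6% and 67.5%).

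A free gap often lacked a neighbour as well. Of the 79 free gaps, both flanking constituents were present in shNT + OHT in 29, 1 of them in 39 and neither in 11. When only gaps with both flanks present in shNT + OHT were counted, 70 of 163 were spanned (42.9%, 35.6 to 50.6). In the comparison gaps with both flanks present the share was 3.71% (2.89 to 4.76). All 70 spanned gaps had both flanks present, so that this filter could only raise the share. Widths were pooled here, and 978 of the 1880 comparison gaps were over 50 kb, against 25 of the 236 bridged gaps. Seen per region, 62 of 219 fused regions had every gap spanned in shNT + OHT (28.3%), 152 had none spanned (69.4%) and 72 had every gap free (32.9%).

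At the level of whole regions, 116 fused regions overlapped 1 shNT + OHT row, 87 overlapped 2, 7 overlapped 3 or more and 9 overlapped none. In shNT, 80 overlapped 1 row, 94 overlapped 2, 3 overlapped 3 or more and 42 none. The median covered share of a fused region was 74.2% in shNT + OHT and 51.7% in shNT. The condition on shNT limits the shNT values, so that this contrast is not a measure of OHT in cells with CDK12. Autosomal reads inside regions also differed, with 49994993 in shNT + OHT and 17261176 in shNT. In 37 fused regions (16.9%) the shNT + OHT row was one that itself joined 2 or more shNT rows. These rows were 37 of the 159 joining rows of shNT + OHT (23.3%). The share of other shCDK12 + OHT rows that overlap a joining row is not given here. Fused regions were also wider, with a median of 168.4 kb against 68.8 kb in rows that overlapped 1 shCDK12 row. The 16.9% is therefore not read as particular to fused regions.

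The regions with the widest gaps spanned in shNT + OHT are described first. In each of these 5 places shNT + OHT had a single row across the gap, as shCDK12 + OHT had by the rule, and in 4 of them shNT held a pair of rows. On chromosome 16 (87408001 to 87749600, 341.6 kb) a gap of 42.4 kb lay between shCDK12 rows of 64.4 and 244.4 kb. One shNT + OHT row of 378.4 kb and 100.1 reads per kb covered it, and the fused row held 63.0 reads per kb. Reads are not scaled to library size, so that these densities are not compared between lists. The shNT rows of this place, 85.2 and 266 kb wide, lay closer together than those of shCDK12. On chromosome 17 (54746801 to 54905200) the gap was 40.4 kb and the shNT + OHT row 166.8 kb wide. On chromosome 3 (58145601 to 58328000) it was 34.4 kb, between shCDK12 rows of 22.8 and 17.8 reads per kb, under an shNT + OHT row of 66.4 reads per kb.

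The remaining 2 of these 5 gaps were both 36.4 kb wide. On chromosome 8 (125084001 to 125317200) shNT held a single row of 136.8 kb over the larger constituent, and none over the smaller one of 29.2 kb. The shNT + OHT row there reached 176.8 kb and entered the smaller constituent, whereas the fused row was wider still at 233.2 kb. On chromosome 13 (52026001 to 52143200) the fused row of 117.2 kb was the only one of its chromosome, and it was sparse, with 24.7 reads per kb.

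**Figure D4:**
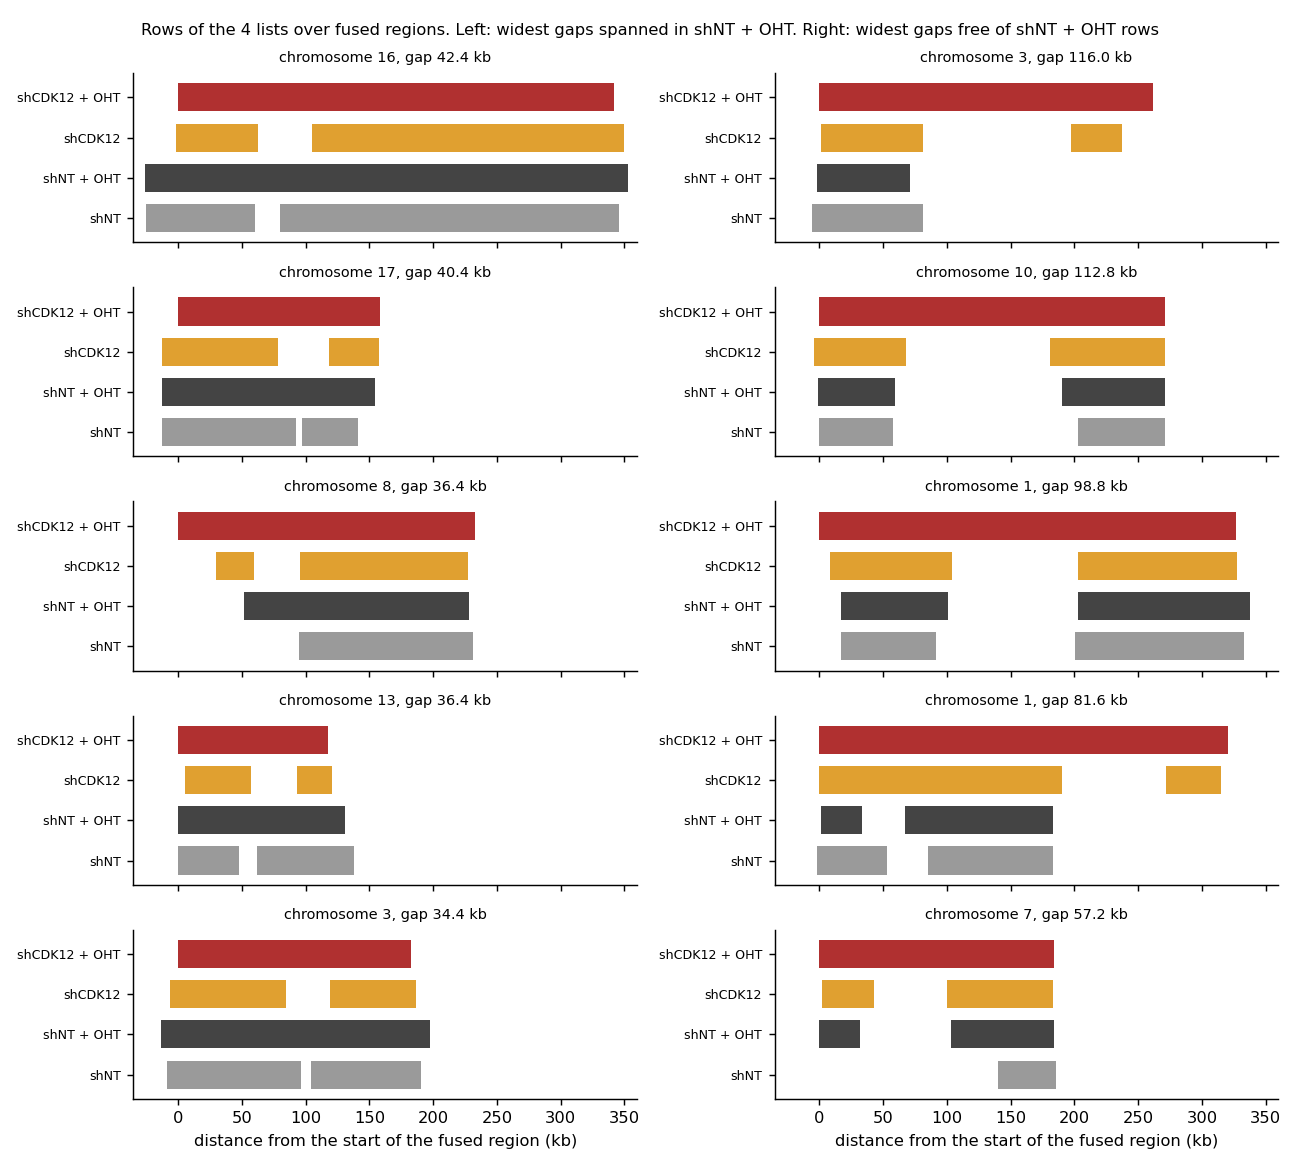
Rows of the 4 lists over 10 fused regions, drawn by distance from the start of the fused region (kb). Left, the 5 widest bridged gaps that 1 shNT + OHT row spans (34.4 to 42.4 kb). Right, the 5 widest that no shNT + OHT row touches (57.2 to 116 kb), where shCDK12 + OHT alone is continuous.

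The widest gaps free of shNT + OHT rows looked different. That no shNT + OHT row entered them follows from their choice. Where shNT + OHT rows were present beside such a gap, they ended near the same edges as those of shCDK12. In some of these places 1 side of the gap had no shNT + OHT row. On chromosome 10 (75163601 to 75434400, 270.8 kb) the gap was 112.8 kb. The shNT + OHT rows on its sides held 51.6 and 144.4 reads per kb, whereas the continuous shCDK12 + OHT row held 50.9. On chromosome 1 (45740001 to 46066400) a gap of 98.8 kb was bracketed by shNT + OHT rows of 59.2 and 119.3 reads per kb, and the shCDK12 + OHT row held 48.3. In both places all lists but shCDK12 + OHT had a row on either side.

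In the other cases an shCDK12 constituent lacked a counterpart in at least 1 of the shNT lists. On chromosome 3 (72492001 to 72753600) the gap of 116 kb, the widest of all, lay between constituents of 80 and 40 kb, and the smaller one, with 9.5 reads per kb, was absent from both shNT lists. On chromosome 1 (53012001 to 53332800) the gap was 81.6 kb, and the constituent of 43.2 kb beyond it was again absent from both shNT lists. On chromosome 7 (128692401 to 128876800) the gap was 57.2 kb and both sides were present in shNT + OHT, with 30.9 and 41.8 reads per kb, but only 1 of them in shNT.

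Regions with many constituents were built of rows at or below the median density of the shCDK12 list, 17.2 reads per kb. On chromosome 2 (132071601 to 132298800, 227.2 kb) 5 constituents of 15.6 to 49.6 kb and 11.3 to 16.1 reads per kb were joined across 58.4 kb of gaps, and shNT + OHT held 3 rows there that spanned 2 of the gaps. On chromosome 1 (120183201 to 120458800, 275.6 kb) 4 constituents of 10.4 to 15.4 reads per kb were joined, and 2 of the gaps were spanned by an shNT + OHT row of 186 kb. On chromosome 8 (81076001 to 81402400, 326.4 kb) 3 constituents were joined across gaps that were both free in shNT + OHT, where a single row of 138.8 kb was called.

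The read density of fused regions was close to the median of their list. It was lower than that of rows of like width that overlapped 1 shCDK12 row. The median was 33.7 reads per kb (quartiles 28.2 and 41.7), against 33.1 over all autosomal shCDK12 + OHT rows, and 102 of 219 lay below that value. Because wide rows were denser, the comparison was made within widths against rows that overlapped 1 shCDK12 row. From 50 to 100 kb the medians were 27.7 (n = 32) against 32.5 reads per kb (n = 1183), from 100 to 200 kb 31.8 (n = 97) against 41.8 (n = 755), and from 200 to 350 kb 42.0 (n = 84) against 56.5 (n = 267). Fused regions were thus sparser in each band, while the interquartile ranges overlapped in each (34.6 to 51.0 against 43.9 to 74.8 in the widest). Rows that joined shCDK12 rows but touched a divided shNT row were similar, with 29.98, 33.2 and 38.7 reads per kb in the same bands. Rows with no shCDK12 counterpart were the sparsest, with 22.2 and 23.3 in the first 2 bands.

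**Figure D5:**
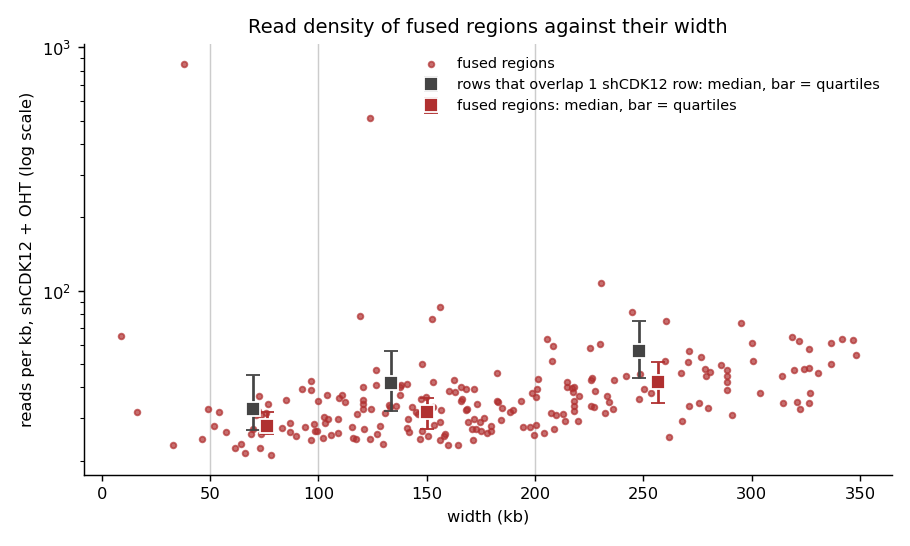
Reads per kb in shCDK12 + OHT (log axis) against width (kb) for the 219 fused regions (points). Squares give the median and bars the quartiles of fused regions and of rows that overlap 1 shCDK12 row, in bands of 50 to 100, 100 to 200 and 200 to 350 kb. The fused median is the lower one in each band, 42.0 against 56.5 reads per kb in the widest, and 2 regions stand far above the rest.

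Density was also followed from the constituents to the fused region. Deposited reads are not scaled to library size, so the ratio was read against that of 3047 rows that matched one to one between these lists. Fused regions held a median of 1.38 log2 more reads than the sum of their constituents (quartiles 1.16 and 1.60), against 1.18 in rows matched one to one. Per kb the medians were 1.08 and 1.01. Relative to the matched rows, the density of fused regions was therefore 0.06 higher on the log2 scale, with quartiles of -0.09 and 0.18 that include 0, and 90 of 219 regions fell below 0. The relative value was lower in regions with a larger share of gaps. It was 0.11 (quartiles -0.03 and 0.22) in 107 regions whose gaps took up to 10% of the length. In 75 regions with 10 to 25% it was 0.01 (-0.15 and 0.13), and in 37 regions with more than 25% it was -0.03 (-0.17 and 0.07). The interquartile ranges overlapped. The length of a fused region includes its gaps and that of its constituents does not, so that gap share and this ratio are tied by their definition. Reads inside the gaps alone are not given separately by the lists.

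Over the fused regions, the rows of the other lists had medians slightly below those of their own lists, with no account taken of width. The shNT + OHT rows there had a median of 49.5 reads per kb in the 210 regions that had any, against 52.5 over all autosomal rows of that list. The shNT rows had 20.5 in 177 regions, against 22.4 over their list. The quartiles overlapped between regions that differed in the state of their gaps: shNT + OHT rows had a median of 51.9 reads per kb where every gap was spanned, with quartiles of 41.6 and 70.6, and 50.2 where every gap was free, with quartiles of 35.8 and 66.6. In shCDK12 + OHT the medians were 35.6 and 33.4 reads per kb.

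At the upper end of density stood 2 regions with a very dense core. On chromosome 19 (27731601 to 27769600, 38 kb) the fused row held 857.7 reads per kb. A core of 8.8 kb with 1576.6 reads per kb in shCDK12, 1276 in shNT and 2916 in shNT + OHT was joined to a row of 20.8 kb with 12.4 reads per kb. On chromosome 16 (33864401 to 33988400, 124 kb) the fused row held 510.3 reads per kb, and its denser constituent 431.6. The next region, on chromosome 17 (62646401 to 62876800), held 107.9. Such cores were dense in all 4 lists, and without both regions the share of gaps spanned in shNT + OHT was 29.9%, in place of 29.7%.

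At the lower end, the fused region on chromosome 18 (55522801 to 55600800, 78 kb) held 21.1 reads per kb and overlapped no shNT + OHT row. The regions on chromosome 5 (14515201 to 14581200, 21.4 reads per kb) and chromosome 3 (33249201 to 33322400, 22.6 reads per kb) overlapped no row of either shNT list. Both of the latter joined a pair of rows of 20.8 to 31.6 kb, whereas on chromosome 18 the larger constituent of 102.8 kb lay mostly outside the fused row. The narrowest fused region, on chromosome 12 (38535201 to 38544000, 8.8 kb), joined rows of 2 and 1.2 kb across 5.6 kb.

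The width limit did not fall at a break in the values. The widest fused regions were 348 kb on chromosome 1 (8866001 to 9214000), 346.8 kb on chromosome 17 (55721601 to 56068400) and the region of 341.6 kb on chromosome 16 above, with 54.5, 62.4 and 63.0 reads per kb. Just beyond it lay regions of 352.4 kb on chromosome 1 (21654401 to 22006800), 354.4 kb on chromosome 22 (32198801 to 32553200) and 360.4 kb on chromosome 7 (3909601 to 4270000), with 66.8, 43.2 and 30.04 reads per kb.

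Fused regions were found on each of the 22 autosomes. Chromosome 1 had 29 and chromosome 2 had 24. As a share of the autosomal rows under 350 kb they ranged from 1.25% on chromosome 13 (1 of 80) and 2.83% on chromosome 10 (7 of 247) to 6.25% on chromosome 15 (11 of 176) and 8.13% on chromosome 20 (10 of 123), around the 4.96% of all autosomes. On chromosome 20, 5 of 10 bridged gaps were spanned in shNT + OHT, and on chromosome 11 it was 2 of 17. Neighbouring fused regions on a chromosome lay a median of 5.42 Mb apart, and 38 of 197 such distances were under 1 Mb.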

How the data were processed

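EdU-labelled DNA of U2OS-MycER cells was isolated by click chemistry with biotin and sequenced. The submitters' processing notes name BWA 0.6.2, SAMtools, SICER and the builds hg19 and mm10, without roles; settings, control libraries and treatment of duplicates are not given in the sources used here. Per the file headers, each of the 4 deposited lists gives limits, a read count and a score per region. The count deposited by the authors is a whole number per region over merged replicates, not scaled to library size. The score deposited by the authors is at most 1000 per 400 bp window, and its scale between lists is not stated. It served only in alternatives. Limits lie on 400 bp windows, so that stretches up to 4 kb without signal were already bridged within a region.

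Lists were merged before deposit, hence groups were compared as 1 list each and no test was run. On 13 autosomes the lists reach past the hg38 end, and the hg38 reference was not used for coordinates. Overlap meant at least 1 bp. The regions named hold the 5 widest bridged gaps spanned in, and the 5 free of, shNT + OHT rows, the 3 with most constituents, the 3 highest and 3 lowest densities, the widest and the narrowest, and 3 on each side of the width limit. Wilson 95% intervals cover counting error only. The comparison with gaps neither bridged nor joined in shNT was set up after values had been seen, and the members and all other comparisons were chosen with earlier results of these data known. Functions were tested on simulated data. Alternatives covered the overlap rule, joining across 10 kb, score limits, the width limit, the shNT condition and definitions of the gap states. Intervals came from scipy 1.17.1, tables from pandas 2.3.3 and numpy 2.4.6 under Python 3.11.15, and plots from matplotlib 3.10.9.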

Additional observations from a re-analysis of the deposited data

Results flagged for a closer look

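On chromosome X, which the rule leaves out, 1 of 73 rows under 350 kb met the rest of the rule. It joined its constituents across a gap of 38.4 kb that was partly covered in shNT + OHT.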

How the results depend on the processing

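No paired analysis was possible because the lists hold merged replicates, and for the same reason no sample could be left out. Over 74 alternative values, 48 stayed within 1.5 times the count, the Wilson interval of a share or the 95% order-statistic interval of a median and 26 did not. The log2 read ratio, the one value that could change sign, stayed above 0. It was not read against the rows matched one to one, whose own median was 1.18. Its sign is therefore no measure of how stable the fused regions are, and the ratio relative to matched rows was not recomputed. The cause of the moved values was not tested except where the setting itself changes the regions counted. A common minimum score of 146 gave 133 fused regions, 27.5% of gaps free in shNT + OHT, 37.4 reads per kb and a log2 read ratio of 1.29. The 3874 top-scoring rows of each list gave 136 regions, 36.9 reads per kb and a ratio of 1.29. Keeping regions that touch a divided shNT row gave 412 regions, 54.7% of gaps spanned and 21.1% free, a median gap of 7.2 kb and 8.24% of the length in gaps, with a ratio of 1.30. Counting constituents up to 10 kb apart as 1 gave 129 regions, 15.0% of gaps spanned, a median gap of 28.8 kb and 16.8% of the length. Joining all rows up to 10 kb apart gave 20.5%, 29.6 kb and 18.3%, so that narrow gaps carry much of the spanned share. Without the width limit the density was 37.6 reads per kb, the ratio 1.31 and the gap share 8.86%. With cover of at least 50% counted as spanned the share was 43.2%, and with cover of up to 10% counted as free it was 41.5%. The deposited score had a median of 14.0 per kb. It is counted among the 26, but its unit differs from that of reads per kb, so that it cannot be judged as kept or moved. Without chromosome 1, and without the 2 densest regions (added once the data had been seen), no value moved. Depth of full libraries is unknown.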

Other observations

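Rows of the shCDK12 + OHT list at or above 350 kb that met the rest of the rule numbered 73 and held 103 bridged gaps, with a median width of 20.4 kb. Of these gaps 31 were spanned in shNT + OHT (30.1%, Wilson 95% interval 22.1 to 39.5) and 24 were free (23.3%). Rows set aside for touching a divided shNT row held 381 bridged gaps, with a median of 6 kb. Of the 378 such gaps up to 120 kb wide, 74.9% were spanned in shNT + OHT and 73.0% in shNT.

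Between the lists with OHT, 247 of 4412 shCDK12 + OHT rows under 350 kb (5.60%) overlapped 2 or more shNT + OHT rows, and 194 of 4322 shNT + OHT rows (4.49%) overlapped 2 or more shCDK12 + OHT rows.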
